A study of Mus musculus with 14 samples.

Results

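Splicing in the mouse cells of this series was followed here through 10 genes that act around the SR proteins, the serine- and arginine-rich splicing factors. They are the CLK kinases Clk1, Clk2, Clk3 and Clk4, the SRPK kinases Srpk1 and Srpk2, the SR-like activators Tra2a and Tra2b, and the large cofactors Srrm1 and Srrm2. The genes were chosen by symbol for their roles, with earlier results of these data known, as 10 of the 24346 gene symbols in the RNA-seq tables and 10 of the 24394 in the RNA immunoprecipitation (RIP) tables. All 10 passed the filter on low values in each comparison.

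SR proteins bind exonic enhancers, and phosphorylation of their serines sets where they are in the cell and what they bind. SRPKs act mostly in the cytoplasm, where phosphorylation leads to nuclear import, and CLKs act in the nucleus and release SR proteins from nuclear speckles. Tra2 proteins bind RNA together with SR proteins to activate exons, and the SRRM proteins, which lack an RNA recognition motif, bridge SR proteins and other parts of the splicing machinery. CLK and Tra2 genes are known for control of their own transcripts through retained introns and poison exons.

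RNA was measured in 7 groups of 2 libraries each. Wild-type, untreated embryonic stem cells of a line made by the submitters (mESC) and primary wild-type, untreated embryonic fibroblasts (MEF) gave total RNA. A second set of untreated stem cells was sequenced as Dppa5a knockdown cells (Dppa5a_KD) and their wild-type controls (KD_control); how Dppa5a was knocked down, and in how many clones, is not given in the labels. Dppa5a is an RNA-binding protein of pluripotent cells. The 3 RIP groups all came from stem cells that overexpress Dppa5a with a 3Flag tag: untreated cells precipitated with IgG (IgG_RIP), untreated cells precipitated with a Flag antibody (Flag_RIP), and cells with the treatment labelled HU precipitated with the Flag antibody (HU_Flag_RIP). What HU stands for is not stated, and no IgG library of HU-treated cells and no untagged cells are among these groups. Stem cells were kept on inactivated fibroblast feeders and passaged on gelatin before harvest. The submitters set out to compare splicing between the cell types and after the knockdown, and to find RNAs bound by Dppa5a. The tables hold 1 value per gene, so transcripts that keep an intron or a poison exon are not separated from the others.

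The labels were checked against known genes. Dppa5a was at 1485 and 1818 FPKM (mESC), 0 and 0.0871 (MEF), 5126 and 5417 (KD_control) and 101 and 358 (Dppa5a_KD), where FPKM is a level per length of transcript and per mapped fragments of the library. The knockdown libraries therefore held 1.92% and 6.79% of the control mean. All 9 stem cell markers were at 1 FPKM or more in the 3 stem cell groups, against 1 of the 9 in MEF. They summed to between 2261 and 4231 FPKM in the 6 stem cell libraries and to 23.4 and 17.7 in MEF. Pou5f1, Dppa4, Tdgf1 and Utf1 were listed at 0 in both MEF libraries. The 10 fibroblast markers summed to 6036 and 5148 FPKM in MEF and to between 7.54 and 19.8 in the 6 stem cell libraries. Replicates correlated across genes at 0.948 to 0.997 in RNA-seq and 0.879 to 0.921 in RIP. Total counts per RIP library were 3472020 to 13033886, and 702016 to 1492111 outside the abundant RNAs Rn45s, Rmrp, Rpph1 and Lars2. The FPKM tables give no counts. Their confidence bounds lay within 1.84% (Tra2b) to 13.1% (Clk4) of the level of these genes.

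Promoters of 2 CLKs and of both Tra2 genes are shown. They were picked because the CLKs fell together after knockdown and the Tra2 pair correlated over the 8 RNA-seq libraries (r = 0.904). After knockdown, though, only Tra2b of that pair was called. The RefSeq start of Clk3 lies 746 bases inside the deposited gene, and its window is not shown. Each is the 250 bases before the RefSeq start on GRCm38.p6 (mm10), read 5′ to 3′ on the gene's strand. Clk2 lies at chr3:89164545-89164794 on the plus strand, Clk4 at chr11:51262864-51263113 on the plus strand, Tra2a at chr6:49264053-49264302 on the minus strand, and Tra2b at chr16:22266006-22266255 on the minus strand. Capitals mark the letters TGACG or their reverse complement CGTCA, which overlap in the palindrome TGACGTCA, the cAMP response element.
Clk2: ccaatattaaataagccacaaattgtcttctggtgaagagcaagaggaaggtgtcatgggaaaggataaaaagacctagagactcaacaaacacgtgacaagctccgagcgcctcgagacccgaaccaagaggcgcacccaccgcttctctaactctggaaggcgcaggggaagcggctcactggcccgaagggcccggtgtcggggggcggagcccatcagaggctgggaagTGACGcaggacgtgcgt
Clk4: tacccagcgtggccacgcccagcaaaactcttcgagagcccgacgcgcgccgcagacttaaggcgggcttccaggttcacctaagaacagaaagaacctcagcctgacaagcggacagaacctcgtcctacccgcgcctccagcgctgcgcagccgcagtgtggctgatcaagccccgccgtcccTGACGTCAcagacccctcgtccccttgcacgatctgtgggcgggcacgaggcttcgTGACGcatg
Tra2a: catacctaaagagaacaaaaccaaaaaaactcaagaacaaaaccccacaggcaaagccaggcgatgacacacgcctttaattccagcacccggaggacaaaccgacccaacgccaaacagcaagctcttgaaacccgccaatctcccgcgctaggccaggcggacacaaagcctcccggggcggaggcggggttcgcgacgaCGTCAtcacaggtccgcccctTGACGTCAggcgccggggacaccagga
Tra2b: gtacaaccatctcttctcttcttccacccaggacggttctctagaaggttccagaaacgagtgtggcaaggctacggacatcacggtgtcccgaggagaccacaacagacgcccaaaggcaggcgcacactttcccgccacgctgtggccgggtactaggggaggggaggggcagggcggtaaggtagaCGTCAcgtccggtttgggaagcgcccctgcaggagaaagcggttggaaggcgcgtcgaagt
RefSeq windows were matched for 9 of the 10 genes, all but Clk1 (12 windows). Searched on both strands, TGACGTCA was in the windows of Clk4 and Tra2a and in 1.55% of all 32851 windows. TGACG, which the longer motif contains, was in 7 of the 12 windows and in 17.8% of all. The 7 were those of Clk2, Clk3, Clk4, Tra2a, Tra2b and Srrm2 (both its windows). The Srrm2 starts lie 0 and 38 bases from the deposited start, so its windows overlap and share a match. The Srpk2 starts lie 0, 59396 and 59889 bases from the deposited start, and the Clk3 window is counted although not shown. GGGCGG was in 8 of the 12 windows and 32.7% of all, CCAAT in 4 and 33.8%, and TATAAA in 0 and 12.4%. All windows shown hold TGACG, and those of Srpk1, Srpk2 and Srrm1, which do not, are not shown. The motifs were chosen after the sequences were seen, and a match describes these letters only. Any tie between a match and the changes of these genes was not tested.

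After Dppa5a knockdown, 6 of the 10 genes fell and 1 rose. All 4 CLK kinases fell, with Srpk2 and Srrm1, while Tra2b rose (limma adjusted p under 0.05). Over the 12345 genes tested, 37.4% were called, 23.8% lower and 13.6% higher, and the median log2 fold change was -0.11 against -0.55 over the 10 genes. The libraries of the 2 groups did not overlap for 9 of the 10 genes, against 75.6% of all genes. In mESC against MEF, 4 genes were higher and 0 lower: Srpk1, Tra2a, Tra2b and Srrm1. There 56.7% of 12875 genes passed, 30.6% higher and 26.1% lower. The median was 0.15 over all genes and 0.46 over the 10. Groups did not overlap for 7 of the 10, against 79.8% of all genes. In KD_control against MEF, 6 were higher (the CLKs, Srpk1 and Srrm1) and 1 lower (Tra2b), where 80.9% of 13365 genes were called, 48.4% higher and 32.5% lower, and 91.4% did not overlap. The 3 comparisons share control libraries (MEF, and KD_control), so their values are only set side by side. Fold changes of RNA-seq are differences of log2(FPKM + 1), which understates the change of low genes, and the labels do not say whether the libraries of a group are separate cultures. The p-values then measure only the spread between these libraries, which may be technical. In bulk RNA, fewer cells of a type and less RNA per cell cannot be told apart.

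**Figure D1:**
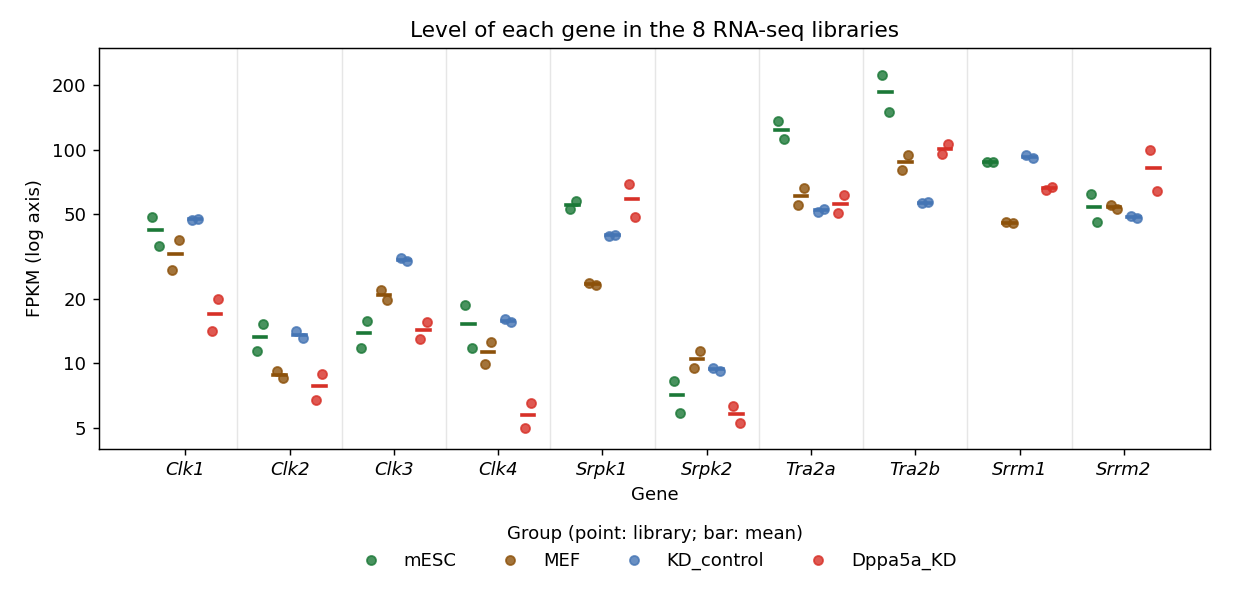
FPKM of each gene (log axis) in the 8 RNA-seq libraries, with 1 point per library and a bar at the mean of the 2 libraries of a group. Clk1 and Clk4 sit lowest in Dppa5a_KD, and Tra2a and Tra2b sit highest in mESC, at 112 to 223 FPKM.

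Clk1 (chr1:58411988-58424088) and Clk4 (chr11:51263114-51281770) encode a pair of close paralogs that phosphorylate SR proteins in the nucleus. Clk1 was at 48.5 and 35.5 FPKM (mESC), 27.5 and 37.8 (MEF), 46.9 and 47.7 (KD_control) and 14.1 and 20.0 (Dppa5a_KD). Clk4 was at 18.8 and 11.9 FPKM (mESC), 9.91 and 12.6 (MEF), 16.1 and 15.6 (KD_control) and 4.99 and 6.51 (Dppa5a_KD). For both genes the knockdown libraries were the lowest of the 8, below every library of the other groups, while mESC overlapped MEF and KD_control. Clk1 fell by 1.44 on the log2 scale after knockdown (SE 0.18, limma adjusted p = 0.0081), to 29.9% and 42.3% of the control mean. Clk4 fell by 1.33 (SE 0.14, adjusted p = 0.0068), to 31.5% and 41.1%. Both stayed called in 12 of 12 alternatives, over log2 fold changes of -1.67 to -1.20 for Clk1 and -1.49 to -1.16 for Clk4. The FPKM of the 2 knockdown libraries summed to 452677 and 585678, against 567371 and 571930 in the controls. With every library brought to a common sum, the knockdown libraries were at 37.6% and 41.1% of control for Clk1 and at 39.6% and 40.0% for Clk4.

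The ratio of Clk1 to Clk4 (FPKM) stayed between 2.59 and 3.07 in all 8 libraries, across cell types and knockdown. Over these libraries log2(FPKM + 1) of the pair correlated at r = 0.991 (n = 8, libraries that share groups and scaling). Among 8842 genes averaging 5 FPKM or more, Clk4 was the gene most like Clk1 and Clk1 the gene most like Clk4. The next most like Clk1 were 4921524J17Rik (r = 0.974) and Irak1bp1 (r = 0.962), and the next most like Clk4 were Pi4k2b (r = 0.983) and Rsc1a1 (r = 0.974). How the counting treated reads that match both paralogs is not stated, so their separate levels are uncertain to that extent.

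**Figure D2:**
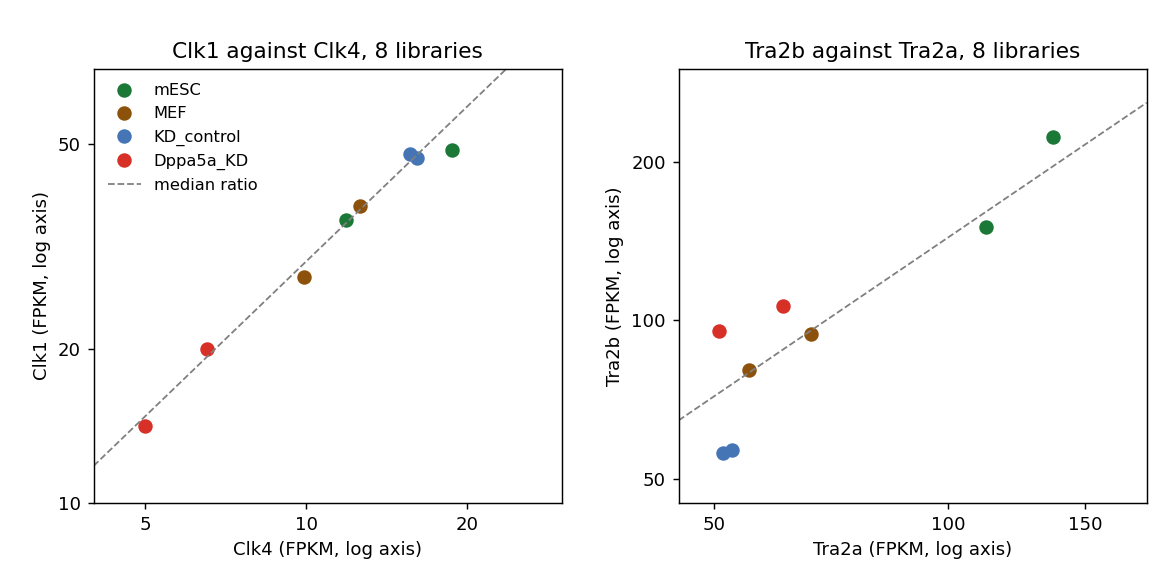
Clk1 against Clk4 (left) and Tra2b against Tra2a (right), FPKM on log axes, 1 point for each of the 8 RNA-seq libraries. The dashed line is the median ratio: the Clk1 to Clk4 ratio spans 2.59 to 3.07, and the Tra2b to Tra2a ratio spans 1.08 to 1.88, with KD_control below the line and Dppa5a_KD above it.

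Clk3 (chr9:57750711-57765860) and Clk2 (chr3:89164795-89177087) encode the other two CLKs. Clk3 was at 11.9 and 15.8 FPKM (mESC), 22.1 and 19.8 (MEF), 31.2 and 30.1 (KD_control) and 13.0 and 15.7 (Dppa5a_KD). Its order was KD_control, then MEF, then Dppa5a_KD and mESC, which overlapped each other. Clk3 fell by 1.05 after knockdown (SE 0.12, adjusted p = 0.0075), to 42.4% and 51.1% of control, and was called in 12 of 12 alternatives (-1.18 to -0.91). Clk2 was at 11.4 and 15.3 FPKM (mESC), 9.17 and 8.55 (MEF), 14.1 and 13.2 (KD_control) and 6.77 and 8.92 (Dppa5a_KD). The mESC and KD_control libraries lay above the MEF and knockdown libraries, and within each of those pairs the values overlapped. Clk2 fell by 0.74 after knockdown (SE 0.15, adjusted p = 0.022), to 49.6% and 65.3% of control. Without KD_control replicate 1 or 2 the adjusted p of Clk2 was 0.100 or 0.056. The Clk2 locus overlaps a read-through gene, Clk2-scamp3, at 3.67 to 7.56 FPKM, and reads shared by the 2 cannot be told apart.

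Summed over the family, CLK transcripts were at 90.6 and 78.5 FPKM (mESC), 68.7 and 78.7 (MEF), 108 and 107 (KD_control) and 38.9 and 51.1 (Dppa5a_KD). The knockdown libraries were thus the lowest and the controls the highest of the 8. Clk1 made up 36.3% to 53.6% of that sum in every library, the largest share of the 4. In KD_control against MEF, the log2 fold changes were 0.54 for Clk1 (SE 0.16, adjusted p = 0.031), 0.57 for Clk2 (SE 0.09, 0.0034), 0.53 for Clk3 (SE 0.10, 0.0049) and 0.47 for Clk4 (SE 0.13, 0.025). All genes had a median of 0.29 in this comparison and of -0.03 with median-ratio scaling. With that scaling the values were 0.21, 0.27, 0.21 and 0.16, only Clk2 stayed called (adjusted p = 0.046), and the share of calls that were higher went from 59.8% to 49.0%. In mESC against MEF 0 of the 4 CLKs passed the test: Clk1 differed by 0.35 (SE 0.27, adjusted p = 0.31), Clk2 by 0.53 (SE 0.22, 0.095), Clk3 by -0.58 (SE 0.23, 0.080) and Clk4 by 0.39 (SE 0.28, 0.29). Clk3 passed there with median-ratio scaling (-0.71, adjusted p = 0.034) and without mESC replicate 2 (-0.77, adjusted p = 0.047). With all 8 libraries in 1 fit both Clk2 (adjusted p = 0.044) and Clk3 (adjusted p = 0.025) passed.

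Srpk1 (chr17:28589592-28622454) and Srpk2 (chr5:23503356-23616571) encode the constitutively active SR protein kinases. Srpk1 was at 52.7 and 57.5 FPKM (mESC), 23.9 and 23.2 (MEF), 39.5 and 40.1 (KD_control) and 69.3 and 48.3 (Dppa5a_KD). MEF was lowest, KD_control next, and mESC and Dppa5a_KD overlapped above them. Srpk1 was higher in mESC than in MEF by 1.19 (SE 0.20, adjusted p = 0.0050) and higher in KD_control than in MEF by 0.73 (SE 0.08, adjusted p = 0.00079). After knockdown the difference was 0.53 (SE 0.19, adjusted p = 0.090), which did not pass the test. The 2 knockdown libraries stood apart for this gene, at 174% and 121% of control.

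Srpk2 was at 8.29 and 5.89 FPKM (mESC), 9.52 and 11.4 (MEF), 9.55 and 9.23 (KD_control) and 6.34 and 5.24 (Dppa5a_KD). It was the lowest of the 10 in mESC, and its knockdown libraries lay below those of KD_control and MEF but overlapped mESC. Srpk2 fell by 0.62 after knockdown (SE 0.12, adjusted p = 0.021), to 67.5% and 55.8% of control. With a common sum the change was -0.48 and the adjusted p 0.18, and without KD_control replicate 1 or 2 the adjusted p was 0.17 or 0.14. Against MEF, Srpk2 differed by -0.51 in mESC (SE 0.24, adjusted p = 0.12) and by -0.14 in KD_control (SE 0.11, 0.31). Srpk1 made up 67.1% to 91.6% of the summed SRPK level, lowest in MEF and highest in Dppa5a_KD, and the ratio of Srpk1 to Srpk2 ran from 2.04 to 10.9. The Srpk2 locus overlaps Kmt2e, whose own change after knockdown was 0.28 (SE 0.17, adjusted p = 0.24), opposite in sign to that of Srpk2.

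Tra2a (chr6:49243921-49264052) and Tra2b (chr16:22245741-22265929) encode SR-like proteins that bind exonic enhancers and activate exons. Tra2b was at 223 and 150 FPKM (mESC), 80.7 and 94.4 (MEF), 56.1 and 56.8 (KD_control) and 95.4 and 107 (Dppa5a_KD). Its order was mESC, Dppa5a_KD, MEF and KD_control, with no overlap, although the lower knockdown library and the higher MEF library were close. Tra2a was at 137 and 112 FPKM (mESC), 55.4 and 66.6 (MEF), 51.3 and 52.7 (KD_control) and 50.7 and 61.3 (Dppa5a_KD). Tra2a was far higher in mESC than in the other groups, and the Dppa5a_KD values overlapped those of KD_control and MEF.

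Tra2b rose by 0.83 after knockdown (SE 0.12, adjusted p = 0.0097), to 169% and 189% of control, while Tra2a differed by 0.10 (SE 0.13, adjusted p = 0.58). Tra2b was called in 10 of 12 alternatives. Without KD_control replicate 1 or 2 its adjusted p was 0.100 or 0.091. The ratio of Tra2b to Tra2a was 1.09 and 1.08 in KD_control and 1.88 and 1.74 in Dppa5a_KD. Against MEF, Tra2b was higher in mESC by 1.06 (SE 0.28, adjusted p = 0.023) and lower in KD_control by 0.62 (log2 fold change -0.62, SE 0.11, adjusted p = 0.0041). Tra2a was higher in mESC than in MEF by 1.01 (SE 0.24, adjusted p = 0.015) and differed by -0.22 in KD_control (SE 0.12, 0.14). Over the 8 libraries the pair correlated at r = 0.904, and Clk3 and Tra2b at r = -0.874 (n = 8, libraries that share groups). The genes most like Tra2b were Dhx9 (r = 0.993), Nop58 (r = 0.991) and Sgk1 (r = 0.989).

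Srrm1 (chr4:135320484-135353214) and Srrm2 (chr17:23803187-23824743) encode speckle proteins that act as splicing coactivators. Srrm1 was at 87.7 and 88.1 FPKM (mESC), 45.7 and 45.3 (MEF), 94.1 and 91.6 (KD_control) and 64.8 and 67.1 (Dppa5a_KD). The 4 groups did not overlap, with KD_control highest and MEF lowest. Srrm1 was higher than in MEF by 0.94 in mESC (SE 0.20, adjusted p = 0.012) and by 1.01 in KD_control (SE 0.08, adjusted p = 0.00023). It fell by 0.49 after knockdown (SE 0.11, adjusted p = 0.025), to 69.8% and 72.3% of control. With a common sum this change was -0.34 and the adjusted p 0.17, and without KD_control replicate 1 or 2 the adjusted p was 0.40 or 0.36.

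Srrm2 was at 62.3 and 46.0 FPKM (mESC), 55.2 and 52.9 (MEF), 48.7 and 48.0 (KD_control) and 99.2 and 64.3 (Dppa5a_KD). The knockdown libraries were the highest of the 8 but far apart, at 205% and 133% of control, and the other groups lay within the range of mESC. The knockdown difference was 0.71 (SE 0.22, adjusted p = 0.063) and did not pass the test. Srrm2 differed from MEF by -0.01 in mESC (SE 0.24, adjusted p = 0.97) and by -0.16 in KD_control (SE 0.08, 0.13). The ratio of Srrm1 to Srrm2 ran from 0.653 to 1.93 over the 8 libraries. The Srrm2 locus overlaps Tceb2, which was at 324 and 587 FPKM in Dppa5a_KD and 596 and 572 in KD_control, and whether strand was kept in the libraries is not stated.

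**Figure D3:**
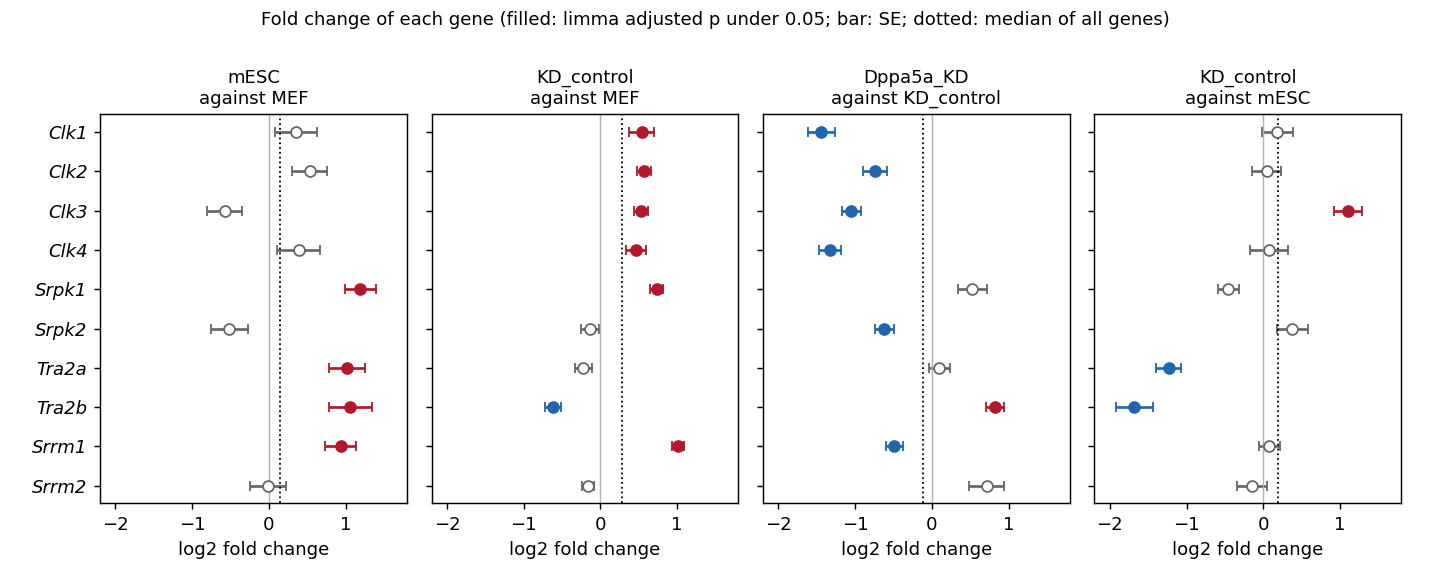
Log2 fold change (difference of log2(FPKM + 1) between group means) of each gene in 4 RNA-seq comparisons, with bars at 1 SE, filled points for limma adjusted p under 0.05 and a dotted line at the median of all genes. The 4 CLKs lie between -1.44 and -0.74 in the knockdown, and Tra2b lies below 0 in KD_control against MEF and above 0 in mESC against MEF.

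The knockdown calls rested on a spread pooled over both groups. The KD_control libraries were the closer pair (r = 0.997 across genes, against 0.977 in Dppa5a_KD). Without KD_control replicate 1 or 2 the log2 fold changes moved little, to 0.82 or 0.84 for Tra2b and -0.47 or -0.51 for Srrm1, while the estimated spread grew. Without KD_control replicate 1, and likewise without replicate 2, 3 of the 10 genes stayed called, which were Clk1, Clk3 and Clk4. Without Dppa5a_KD replicate 1 or 2, 10 or 9 were called. Such fits leave a group with 1 library, which is assumed to vary like the other group. In mESC against MEF, 0 were called without MEF replicate 1 or 2 and 2 without mESC replicate 1. In KD_control against MEF, 2 were called without KD_control replicate 1 or 2, and they were Srpk1 and Srrm1. Of all knockdown calls 36.3% were higher, and 47.1% with median-ratio scaling. Across genes with 1 locus the knockdown change also ran with a value derived from the FPKM and confidence bounds of each gene. It was meant as a stand-in for transcript length, but whether it follows true length was not tested. It put the large cofactors Srrm1 and Srrm2 in bins 2 and 3 of 10, counted from its low end, so it is not read as length here. The median was -0.35 among the 10% ranked lowest by it and 0.06 among the 10% ranked highest. The medians of the bins that hold these 10 genes ran from -0.17 to -0.05. The part of this value, or of length, in the members' changes was not tested further.

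KD_control and mESC carried the same label of wild-type, untreated cells. Between them 3 of the 10 genes were called, which is not above the general share of 41.4% of 12595 genes (26.5% higher, 15% lower). Groups did not overlap for 79.9% of those tested. Clk3 was higher in KD_control than in mESC by 1.11 (SE 0.19, adjusted p = 0.017). Tra2a was lower (log2 fold change -1.23, SE 0.17, adjusted p = 0.011), and so was Tra2b (-1.68, SE 0.24, 0.012). Without KD_control replicate 1 or 2, 1 gene (Tra2b) stayed called, and without mESC replicate 1 or 2, 7 were. For each of these 3 genes the Dppa5a_KD mean lay between those of KD_control and mESC. They were picked because KD_control and mESC differed, and the knockdown comparison shares the KD_control libraries. Tra2a averaged 56.0 FPKM in Dppa5a_KD, 52.0 in KD_control and 124 in mESC, and was not called after knockdown. Whether KD_control and mESC came from 1 line, culture or sequencing run is not stated in the labels, so batch and cells cannot be told apart. Among markers of other cells, the 3 endothelial ones summed to 60.5 and 59.0 FPKM in KD_control, 28.0 and 29.6 in Dppa5a_KD, and 14.4 and 23.5 in mESC, with 1 of the 3 at 1 FPKM or more in each. The 3 neural markers summed to 45.2 and 43.4 in KD_control, 57.0 and 63.9 in Dppa5a_KD, and 74.6 and 78.4 in mESC. The 3 primitive endoderm markers summed to 16.5 and 15.8 in KD_control, 9.74 and 8.15 in Dppa5a_KD, and 25.7 and 33.7 in mESC. The 4 macrophage markers summed to 10.1 and 10.1, 15.1 and 18.4, and 4.30 and 5.64 in the same order, with Adgre1 listed at 0 in all 3 groups. The part of these cell types in the members' changes was not tested.

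Of the related genes that passed the test after knockdown most were higher, where 13.6% of all genes were higher and 23.8% lower. Of 11 SR proteins, 6 rose and 0 fell, with a median log2 fold change of 0.74. Srsf3 rose by 1.64 (SE 0.12, adjusted p = 0.0060) and Srsf1 by 1.11 (SE 0.10, 0.0062); both bind exonic enhancers. Among 8 other kinases of splicing factors, 2 rose and 0 fell: Dyrk3, which dissolves nuclear speckles and other condensates, by 0.87, and Prpf4b, which phosphorylates spliceosome proteins, by 0.63. Of 7 phosphatase and import genes, 3 rose and 0 fell, among them the phosphatase subunit genes Ppp1r10 (1.28) and Ppp2ca (0.55). Of 22 other RS-rich cofactors tested, 4 rose and 1 fell, with Bclaf1 at 1.50, Thrap3 at 1.01 and Rsrp1 at -1.45. These lists were drawn up with earlier results known and are described by counts only.

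**Figure D4:**
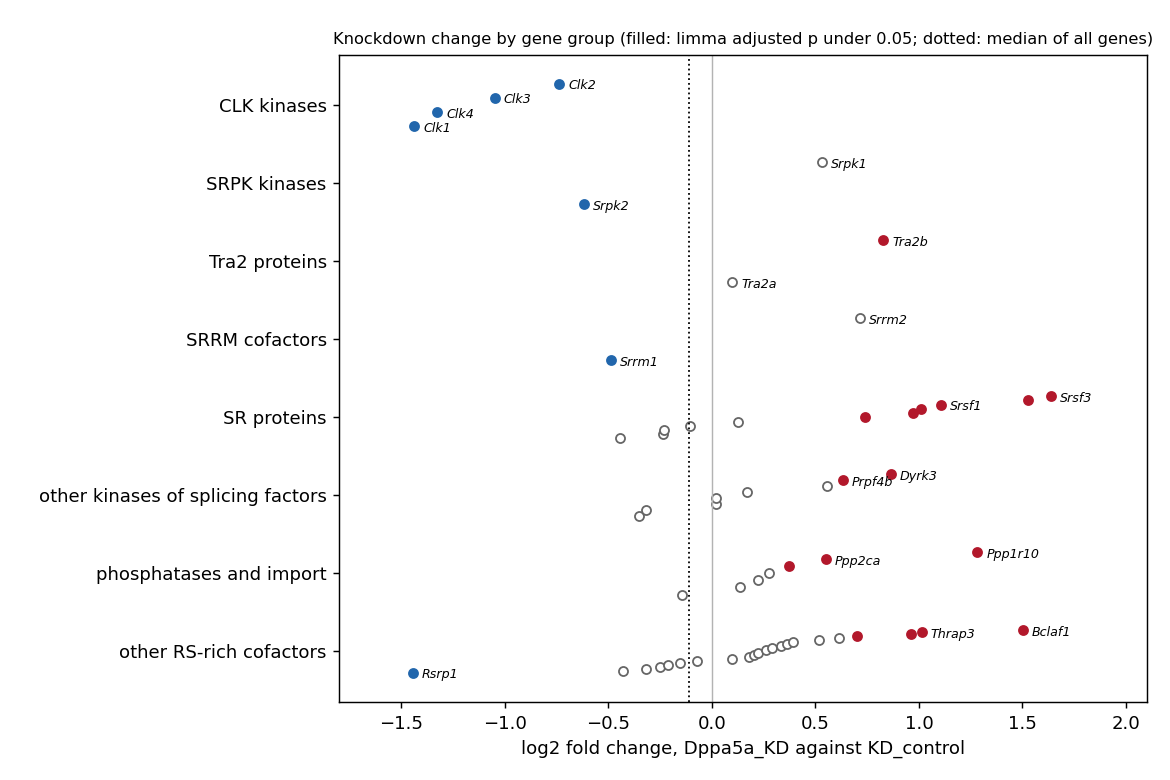
Log2 fold change in Dppa5a_KD against KD_control for the 10 genes by family and for 4 related gene lists, with 1 point per gene and filled points for limma adjusted p under 0.05. The 4 CLKs lie at -0.74 or below, whereas the SR proteins called (6 of 11) lie above 0.

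In mESC against MEF, 6 of 10 SR proteins tested were higher and 0 lower (median 0.88), and the smallest p were those of Srsf7 (1.67) and Srsf1 (1.06). In KD_control against mESC, 1 of 11 was higher and 7 lower (median -1.46), with Srsf2 at -2.58 and Srsf1 at -1.75. In KD_control against MEF, 2 of 11 were higher and 7 lower. Over all genes the shares higher and lower were 30.6% and 26.1% in mESC against MEF, 26.5% and 15% in KD_control against mESC, and 48.4% and 32.5% in KD_control against MEF, so 9 of 11 called in the last is near the general share of 80.9%. Tra2b was also lower in KD_control than in mESC and in MEF, comparisons that share the KD_control libraries. The other kinases stood at 2 higher and 1 lower of 8 in mESC against MEF, with Dyrk3 at 3.70, and at 0 higher and 2 lower in KD_control against mESC. The RS-rich cofactors stood at 6 higher and 1 lower of 22 and at 1 higher and 10 lower in the same comparisons.

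In RIP, Tra2a was the member recovered more with the Flag antibody than with IgG, both without and with HU. Its counts were 32 and 46 with IgG, 200 and 165 with Flag, and 165 and 121 with Flag after HU. Scaled to CPM, the count divided by the effective size of its library, these were 6.36 and 7.77, 19.4 and 20.6, and 21.9 and 19.8, so both Flag groups lay above both IgG libraries. The log2 fold change over IgG was 1.50 in Flag_RIP (SE 0.37, edgeR adjusted p = 0.036) and 1.56 in HU_Flag_RIP (SE 0.37, adjusted p = 0.026). This was 1 of the 10 genes in each comparison, where 2.32% (1.16% higher, 1.16% lower) and 2.86% (1.44% higher, 1.42% lower) of 10473 genes were called. The 2 comparisons share the IgG libraries. Between HU_Flag_RIP and Flag_RIP, Tra2a differed by 0.06 (SE 0.34).

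The Tra2a calls were lost when some libraries were left out, although its log2 fold change stayed at 1.38 to 1.65 in Flag_RIP and 1.43 to 1.70 in HU_Flag_RIP, and they were lost with another scaling. Without IgG_RIP replicate 1 or 2 the adjusted p was 0.32 or 0.20 in Flag_RIP and 0.25 or 0.18 in HU_Flag_RIP. Without Flag_RIP replicate 1 or 2 it was 0.079 or 0.093 in Flag_RIP, and without HU_Flag_RIP replicate 1 it was 0.087 in HU_Flag_RIP. With library size alone, which moved the median of all genes from 0.02 to -0.87 in Flag_RIP and from 0.04 to -0.88 in HU_Flag_RIP, Tra2a stood at 0.59 (adjusted p = 0.26) and 0.63 (adjusted p = 0.23). That scaling took the share of calls that were higher from 49.8% to 2.81% and from 50.3% to 3.40%, and the 1 member it called in each comparison was Srrm2, lower at -0.90 and -1.29. Over all alternatives the adjusted p of Tra2a ran from 0.011 to 0.32 in Flag_RIP and from 0.0069 to 0.25 in HU_Flag_RIP.

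**Figure D5:**
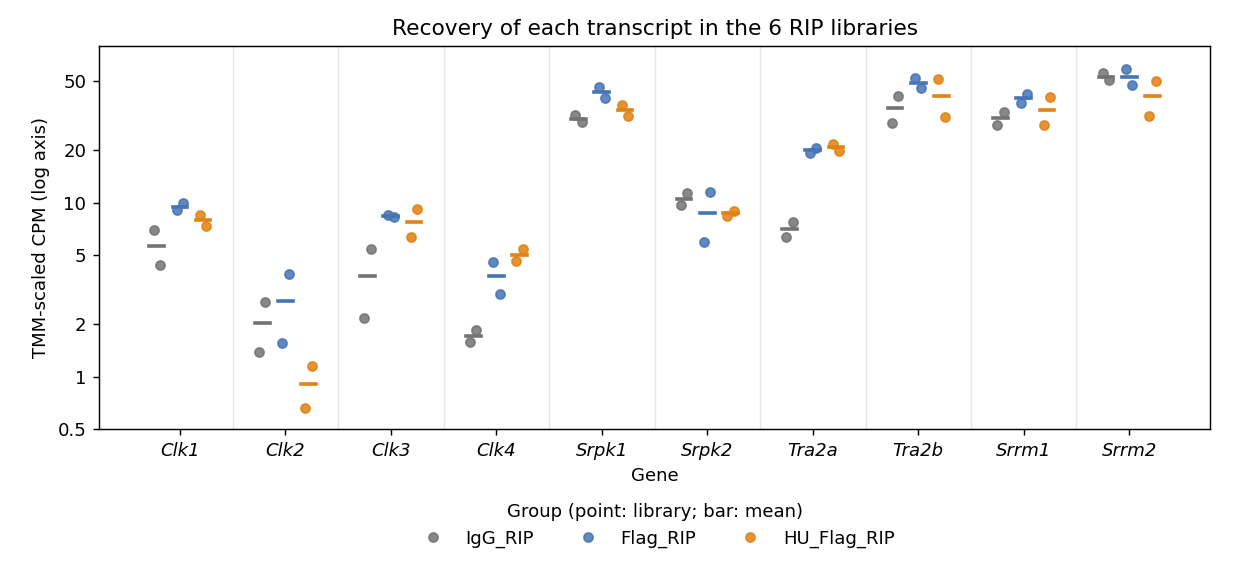
TMM-scaled CPM (log axis) of each transcript in the 6 RIP libraries, with 1 point per library and a bar at the mean of the 2 libraries of a group. Tra2a lies at 6.36 and 7.77 in IgG_RIP and at 19.4 to 21.9 in the 4 Flag libraries.

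The CLK transcripts were recovered at low counts. Clk1 had 35 and 26 counts with IgG, 93 and 80 with Flag, and 64 and 45 with Flag after HU. Clk4 had 8 and 11, 47 and 24, and 35 and 33 in the same order, and Clk3 had 11 and 32, 87 and 66, and 48 and 56. In TMM-scaled CPM the Flag libraries lay above the IgG libraries for all 3 genes, with and without HU. The same held for Tra2a in both, and for Tra2b, Srpk1 and Srrm1 without HU. With HU, Clk2, Srpk2 and Srrm2 lay below IgG without overlap. These positions depend on the scaling. With library size alone, Clk1 was at -0.13 in Flag_RIP and -0.42 in HU_Flag_RIP. Tra2b, Srpk1 and Srrm1 were then at -0.43, -0.39 and -0.53 in Flag_RIP. Clk3, Clk4 and Tra2a stayed above 0. Over all genes, groups did not overlap, in either direction, for 46.6% in Flag_RIP and 47.4% in HU_Flag_RIP. The CLK differences did not pass edgeR's test. Clk4 was at 1.13 in Flag_RIP (SE 0.66, adjusted p = 0.45) and 1.53 in HU_Flag_RIP (SE 0.67, 0.24). Clk3 was at 1.12 (SE 0.53, 0.32) and 1.01 (SE 0.53, 0.35), and Clk1 at 0.75 (SE 0.46, 0.48) and 0.49 (SE 0.47, 0.66). Clk2, with 5 to 31 counts per library, was at 0.38 (SE 0.90, adjusted p = 0.90) and -1.18 (SE 0.96, 0.59). In HU_Flag_RIP the value of Clk4 was close to that of Tra2a, but its SE was 0.67 against 0.37.

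Tra2b, the paralog of Tra2a, had 145 and 244 counts with IgG, 540 and 366 with Flag, and 389 and 189 with Flag after HU. Its log2 fold change over IgG was 0.48 in Flag_RIP (SE 0.32, edgeR adjusted p = 0.52) and 0.24 in HU_Flag_RIP (SE 0.32, 0.78), with HU_Flag_RIP overlapping IgG_RIP. Srpk1 was at 0.50 (SE 0.30, adjusted p = 0.46) and 0.16 (SE 0.30, 0.85), Srpk2 at -0.27 (SE 0.44, 0.85) and -0.28 (SE 0.44, 0.81), and Srrm1 at 0.37 (SE 0.31, 0.64) and 0.15 (SE 0.31, 0.87). Srrm2, with 239 to 603 counts per library, was at -0.00 (SE 0.30, 1.00) and -0.38 (SE 0.31, 0.59). Together the 10 genes held 0.0155% to 0.0301% of the counts of a library; the widest 95% exact interval (Clopper-Pearson) ran from 0.0283% to 0.0319%, for IgG_RIP replicate 2, and covers counting error only. By this measure IgG_RIP was highest (0.0250% and 0.0301%). Outside the 4 abundant RNAs the share was 0.124% and 0.132% (IgG_RIP), 0.168% and 0.168% (Flag_RIP) and 0.144% and 0.153% (HU_Flag_RIP), so there IgG_RIP was lowest. The transcript of the tagged protein, Dppa5a, was at 231 and 252 CPM (IgG_RIP), 169 and 160 (Flag_RIP) and 114 and 114 (HU_Flag_RIP). Against IgG_RIP it stood at -0.55 in Flag_RIP (SE 0.24, edgeR adjusted p = 0.25). In HU_Flag_RIP it was called lower, at -1.08 (SE 0.24, edgeR adjusted p = 0.017).

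Between HU_Flag_RIP and Flag_RIP, 0 of the 10 genes passed edgeR's test and 0 had an unadjusted p under 0.05. Over all genes edgeR called 0.611% (0.143% higher, 0.468% lower), and 30.6% did not overlap. With DESeq2, which called 72 of all genes (20 higher, 52 lower), 0 of the 10 passed. The largest difference was that of Clk2 (-1.57, SE 0.94), which rested on 5 and 7 counts against 16 and 31. The other 9 lay between -0.38 and 0.40. Among related genes, 2 of 10 SR proteins tested were higher in Flag_RIP than in IgG_RIP, Srsf5 (2.24) and Srsf7 (1.45), and 3 in HU_Flag_RIP, among them Srsf5 (2.09) and Srsf2 (1.34). Of 22 RS-rich cofactors 1 was higher in each, Snrnp70 at 1.21 in Flag_RIP and Rsrp1 at 2.19 in HU_Flag_RIP. The largest value of that list in Flag_RIP, 1.76, was not called, and 0 of the 22 were called between HU_Flag_RIP and Flag_RIP. In the lists of other kinases and of phosphatase and import genes 0 of 8 and 0 of 7 passed edgeR's test in either comparison; the unadjusted p was under 0.05 for 0 and 1 of them in Flag_RIP and for 1 and 0 in HU_Flag_RIP.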

How the data were processed

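RNA-seq (8 libraries) and RIP (6 libraries) were grouped by the labels, 2 libraries to a group. Per the file headers, the authors deposited gene-level FPKM with confidence bounds for RNA-seq. For RIP the deposited values are counts of reads, not normalized, as their whole numbers show. The submitters' processing notes name HTSeq 0.6.1, TopHat2 2.0.8, Cuffdiff 2.1.1, Cufflinks 2.1.1, CASAVA 2.19 and mm10, with no roles. The kit was NEBNext Ultra RNA, per the labels, which do not state strand.

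FPKM was summed over the loci of a symbol; 1 symbol marked as failed, and 27 symbols of the count tables that read as dates, were left out. Log2(FPKM + 1) was tested with limma 3.58.1 (limma-trend) on the groups compared, keeping genes that averaged 1 FPKM or more in a group. For RIP counts, edgeR 4.0.16 in R 4.3.3 gave quasi-likelihood tests (TMM, filterByExpr, all 6 libraries in 1 fit), and DESeq2 1.42.0 was an alternative. The standard error of an edgeR fold change was taken as its size over the square root of F. Adjusted p-values are Benjamini-Hochberg values over all genes tested, called under 0.05. Both tests were also run on simulated data with planted changes, and the outcome is not given here. The changes planted for RIP were larger than that of Tra2a, so that run does not bear on its call. RIP replicates differed by more than sampling noise (chi-square per degree of freedom 10.0 to 12.6). CPM is not per length, so levels are compared between genes in FPKM only.

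The members and gene lists were chosen with earlier results of these data known. Genes named are the 10 members in every comparison, Dppa5a, genes overlapping a member's locus, up to 2 called genes with the smallest p in each direction of a related list, and the 3 genes most correlated with a member, for at most 4 members. Promoters are from RefSeq. Alternatives were other scalings, filters, pseudocounts, fits and leaving out each library. Figures were drawn with matplotlib 3.10.9.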

Additional observations from a re-analysis of the deposited data

How the results depend on the processing

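In RNA-seq, members called moved from 4 to 2 with a replicate block in mESC against MEF, where Tra2a (adjusted p = 0.054) and Srrm1 (0.072) were no longer called. The labels give the replicate numbers no pairing, and deviations of same-numbered samples correlated at -0.54 there and at -0.086 to 0.357 elsewhere. With the numbers crossed, an alternative added after seeing the data, 7 members were called. Leaving out 1 library at a time gave 0 to 5 members called in mESC against MEF (4 with all), 2 to 10 in KD_control against MEF (7), 3 to 10 in the knockdown (7), 1 to 7 in KD_control against mESC (3), 0 to 1 in Flag_RIP and in HU_Flag_RIP against IgG_RIP (1 each) and 0 in HU_Flag_RIP against Flag_RIP. For all genes, the same gave 2835 to 7056 (7304 with all), 7303 to 11788 (10806), 2415 to 9436 (4618), 1865 to 10895 (5220), 30 to 389 (243), 23 to 512 (300) and 44 to 71 (64). Knockdown calls over all genes were 3023 with a 5 FPKM filter, 2884 with a common sum and 2992 with all 8 libraries in 1 fit. For Flag_RIP and HU_Flag_RIP against IgG_RIP they were 2278 and 2709 with library size alone, 433 and 532 with no filter, and 508 and 617 with the replicate block. HU_Flag_RIP against Flag_RIP had 41 with only its 4 libraries. The block called 8 members in the knockdown (7 without it), losing Srrm1 and adding Srpk1 and Srrm2, and 7, 3, 1, 1 and 0 in the other comparisons, as without it.

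Some signs changed. In KD_control against mESC, Clk1, Clk2, Clk4 and Srrm1 were at -0.0025, -0.13, -0.10 and -0.11 with a common sum and -0.0069, -0.14, -0.10 and -0.11 with median-ratio scaling. With library size alone, Clk1, Clk2, Srpk1, Tra2b and Srrm1 were at -0.13, -0.51, -0.39, -0.43 and -0.53 in Flag_RIP against IgG_RIP, and Clk1, Srpk1, Tra2b and Srrm1 at -0.42, -0.76, -0.71 and -0.77 in HU_Flag_RIP. Srrm2 in Flag_RIP was at 0.013 with no filter, 0.0061 with 4 libraries and 0.0025 with the block, and Srpk2 in HU_Flag_RIP against Flag_RIP at 0.0070 with DESeq2 and 0.049 with the block. Leaving out 1 library turned Srrm2 (-0.23 to 0.20) in mESC against MEF and Tra2a (-0.036 to 0.23) in the knockdown. It turned Clk1 (-0.037 to 0.40), Clk2 (-0.15 to 0.24), Clk4 (-0.23 to 0.39) and Srrm2 (-0.36 to 0.071) in KD_control against mESC. In Flag_RIP against IgG_RIP it turned Srrm2 (-0.15 to 0.16), Srpk2 (-0.81 to 0.14) and Clk2 (-0.38 to 0.94), and in HU_Flag_RIP against IgG_RIP Tra2b (-0.18 to 0.56) and Srrm1 (-0.14 to 0.40). In HU_Flag_RIP against Flag_RIP it turned Srpk2 (-0.42 to 0.54), Clk3 (-0.39 to 0.13), Tra2a (-0.022 to 0.13), Srrm1 (-0.52 to 0.017) and Tra2b (-0.67 to 0.067). The cause of these changes was not tested. With 2 libraries a group and CLK counts of 5 to 93 in RIP, the SEs of Clk2 and Clk4 there (0.61 to 0.96) limit what could be called.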
